A study of Mus musculus with 24 samples.

Results

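The stria vascularis, an epithelium on the lateral wall of the cochlea, secretes potassium into the endolymph and maintains the endocochlear potential. The transcripts of 6 of its transport genes were followed here: Kcnq1, Kcne1, Slc12a2, Atp1b2, Bsnd and Kcnj10. Every probe set annotated with exactly 1 symbol, that of a member, was taken, whatever its signal. This gave 10 probe sets for 6 genes, of 34958 probe sets for 18194 genes named by a single symbol. Slc12a2 had 3 probe sets, Kcne1 and Atp1b2 had 2 each, and Kcnq1, Bsnd and Kcnj10 had 1 each, and no low-signal filter was applied.

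The data are 24 Affymetrix arrays of mouse cochlear total RNA. The mice lacked the α9 nicotinic acetylcholine receptor subunit (α9−/−) or were wild type, at postnatal days P3, P7, P13 and P60, with 3 arrays for each genotype and age. Both genotypes carried the same 129S6 x CBA/CaJ background, backcrossed to CBA/CaJ. Each array measured a pool of cochleae from several mice, from which the methods state that cerebellar fragments, semicircular canals and the auditory nerve had been removed, so that the stria was a part of each sample and fewer strial cells cannot be told apart from less RNA per cell.

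Potassium enters the marginal cells of the stria from the intrastrial space, through the sodium-potassium ATPase, whose beta subunit is encoded by Atp1b2, and through the sodium-potassium-chloride cotransporter NKCC1, encoded by Slc12a2. It leaves through the apical channel formed by KCNQ1 and its accessory subunit KCNE1. Chloride that entered with it recycles through basolateral CLC-K channels, which need barttin, the product of Bsnd. In the intermediate cells, melanocytes of the stria, the inward rectifier Kir4.1 (Kcnj10) releases potassium into the intrastrial space and generates most of the endocochlear potential. Several of these genes are also expressed outside the stria: Kcnj10, Atp1b2 and Slc12a2 are known from glia or neurons of the brain.

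Values were log2 signals, quantile-normalized over the 24 arrays, and their median was 6.65. The deposited array medians lay between 6.49 and 6.89. Arrays of 1 group correlated with each other at Pearson r of 0.915 to 0.989 over all probe sets. Chrna9, the deleted gene, was low on its 3 probe sets in both genotypes, with group means of 3.66 to 5.57 in α9−/− cochleae and 3.79 to 5.96 in wild type cochleae, so it gave no check of the labels. In 5 arrays the 3′ control probe set of Gapdh exceeded the 5′ control by 6.30 to 7.69 on the log2 scale, a sign of RNA or labelling quality. In the other 19 arrays the excess was -0.15 to 2.43. Of the 5 arrays, 4 were wild type (1 at P3, 2 at P13, 1 at P60) and 1 was α9−/− at P3. Among markers of the labelled tissue, the hair cell genes Otof and Myo7a had group means of 7.40 to 8.26 and 7.36 to 8.21. The other measured hair cell genes lay near or below the median of all values, Slc26a5 at 4.37 to 4.74, Pou4f3 at 3.90 to 6.04 and Atoh1 at 5.17 to 6.65.

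**Figure D1:**
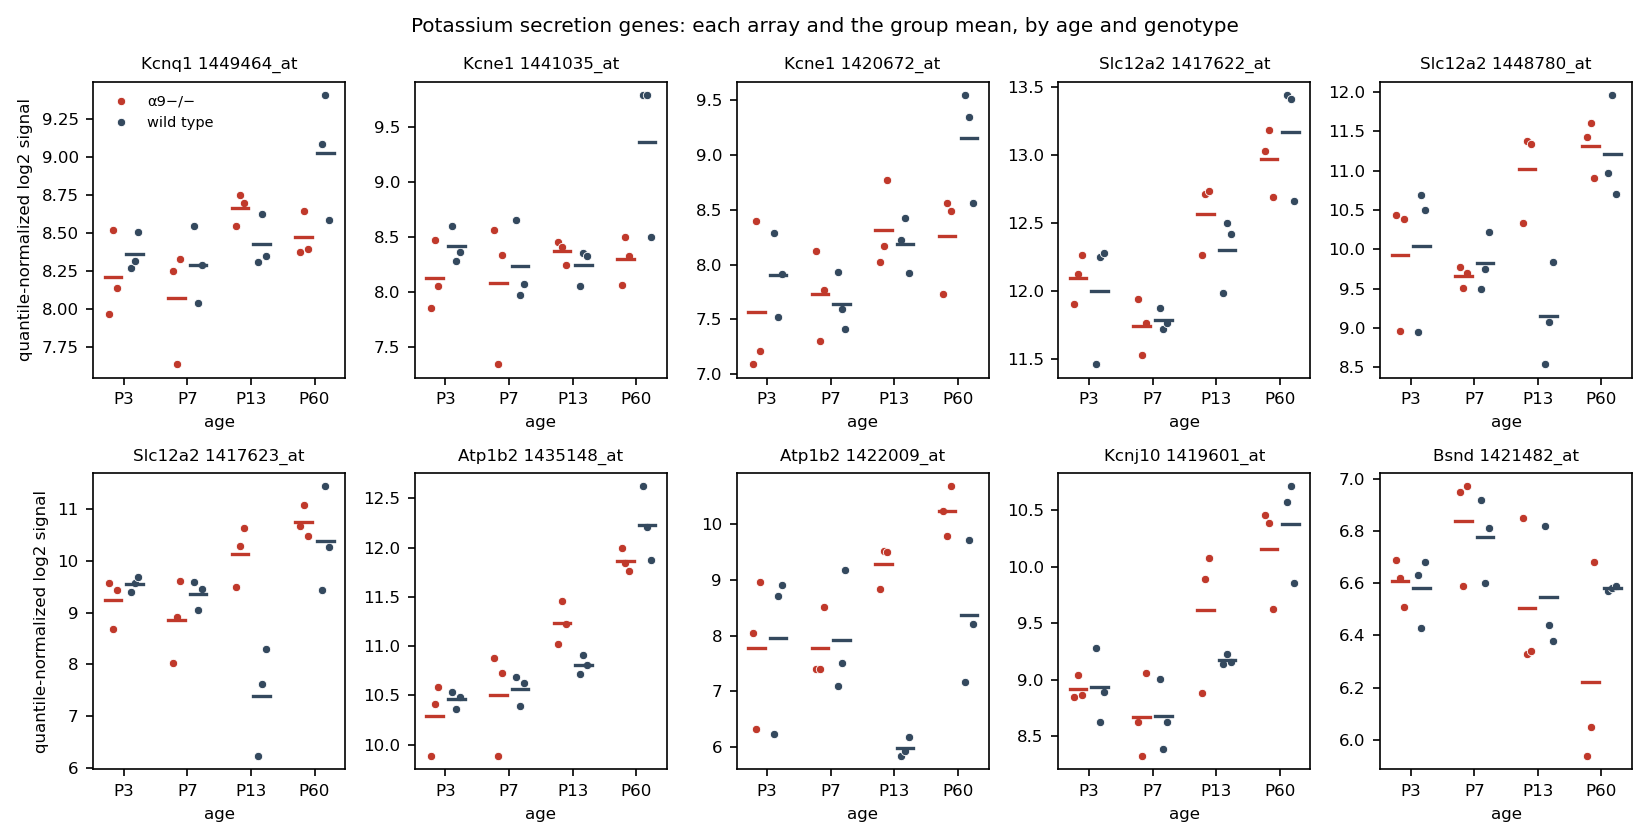
Quantile-normalized log2 signal (y axis) of the 10 probe sets at P3, P7, P13 and P60 (x axis), with a point for each array, a bar for the mean of 3 arrays, α9−/− left (red) and wild type right (dark). At P13 the wild type arrays of Atp1b2 1422009_at lie between 5.84 and 6.18 and the α9−/− arrays between 8.83 and 9.52, and at P60 2 of 3 wild type arrays of Kcne1 1441035_at stand above the rest.

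Kcnq1, the pore subunit of the apical potassium channel, changed little over the first 2 weeks. Its probe set 1449464_at averaged 8.21 ± 0.28 at P3, 8.07 ± 0.38 at P7, 8.67 ± 0.10 at P13 and 8.48 ± 0.15 at P60 in α9−/− cochleae (SD, n = 3 each). In wild type cochleae it averaged 8.37 ± 0.13, 8.29 ± 0.26, 8.43 ± 0.18 and 9.03 ± 0.41 at the same ages (SD, n = 3 each). Neighbours in the order of means overlapped between arrays in both genotypes. The lowest and the highest age of α9−/− cochleae, P7 and P13, did not overlap, and their difference of 0.59 (SE 0.22) did not pass (limma, adjusted p = 0.189).

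Kcne1, the accessory subunit that slows the gating of the KCNQ1 channel, gave the order P7, P3, P60, P13 of group means in α9−/− cochleae on its brighter probe set, as Kcnq1 did, and P3, P7, P60, P13 on the other. The brighter probe set, 1441035_at, averaged 8.12 ± 0.31, 8.08 ± 0.65, 8.37 ± 0.11 and 8.29 ± 0.22 from P3 to P60 in α9−/− cochleae, and 8.42 ± 0.17, 8.23 ± 0.36, 8.24 ± 0.17 and 9.36 ± 0.74 in wild type cochleae (SD, n = 3 each). Probe set 1420672_at averaged 7.57 ± 0.72, 7.73 ± 0.41, 8.32 ± 0.39 and 8.26 ± 0.46 in α9−/− cochleae, and 7.91 ± 0.38, 7.64 ± 0.26, 8.19 ± 0.26 and 9.15 ± 0.52 in wild type cochleae. On both probe sets the highest group mean was that of wild type cochleae at P60.

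Slc12a2 was represented by 3 probe sets that did not behave alike. The brightest, 1417622_at, averaged 12.09 ± 0.18, 11.74 ± 0.21, 12.57 ± 0.27 and 12.97 ± 0.25 from P3 to P60 in α9−/− cochleae, and 12.00 ± 0.46, 11.78 ± 0.08, 12.30 ± 0.28 and 13.17 ± 0.44 in wild type cochleae (SD, n = 3 each). Its order was P7, P3, P13, P60 in both genotypes, P3 and P7 overlapped in both, and P13 and P60 overlapped in α9−/− but not in wild type arrays. The other probe sets, 1417623_at and 1448780_at, had their lowest group means in wild type cochleae at P13, at 7.38 ± 1.06 and 9.15 ± 0.65.

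Atp1b2, the beta 2 subunit of the sodium-potassium ATPase, had a bright probe set whose means followed age in both genotypes. On 1435148_at the means were 10.30 ± 0.36, 10.50 ± 0.53, 11.23 ± 0.22 and 11.87 ± 0.12 from P3 to P60 in α9−/− cochleae, and 10.46 ± 0.09, 10.57 ± 0.16, 10.82 ± 0.10 and 12.23 ± 0.37 in wild type cochleae (SD, n = 3 each). The dimmer 1422009_at spread more widely within groups, from 6.32 to 8.96 among α9−/− arrays at P3 and from 6.23 to 8.91 among wild type arrays at P3.

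Kcnj10, the Kir4.1 channel of the intermediate cells, was measured by 1419601_at alone. It averaged 8.92 ± 0.10, 8.67 ± 0.37, 9.62 ± 0.65 and 10.16 ± 0.46 from P3 to P60 in α9−/− cochleae, and 8.94 ± 0.33, 8.68 ± 0.31, 9.18 ± 0.05 and 10.38 ± 0.46 in wild type cochleae (SD, n = 3 each). The order was again P7, P3, P13, P60 in both genotypes, and neighbours overlapped apart from P60 above P13 in wild type arrays. Of the 6 members, 1, Kcnj10, matched the RefSeq promoter table (GRCm38.p6), and its window is shown for that reason. The window covers chr1:172340960-172341259 on the plus strand, 250 bases before to 50 after the annotated start, and capitals mark the GC-box letters GGGCGG or, on the other strand, CCGCCC.
Kcnj10: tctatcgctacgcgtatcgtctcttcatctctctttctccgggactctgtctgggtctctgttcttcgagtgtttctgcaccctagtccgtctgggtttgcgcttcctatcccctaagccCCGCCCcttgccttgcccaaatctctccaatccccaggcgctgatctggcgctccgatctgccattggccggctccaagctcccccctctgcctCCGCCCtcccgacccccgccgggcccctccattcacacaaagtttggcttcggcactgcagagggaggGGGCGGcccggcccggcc
The letters occurred 3 times without overlap, with their first base 130 and 36 bases before and 32 bases after the start. Of 32851 windows of this length in the table, 35.7% held them at least once, and 63.7% of the bases in this window were G or C. A match is a description of the letters and not of a bound factor.

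Bsnd, which encodes barttin, lay near the median of all array values in each group and moved little. Its probe set 1421482_at averaged 6.61 ± 0.09, 6.83 ± 0.21, 6.51 ± 0.30 and 6.22 ± 0.40 from P3 to P60 in α9−/− cochleae, and 6.58 ± 0.13, 6.78 ± 0.16, 6.55 ± 0.24 and 6.58 ± 0.01 in wild type cochleae (SD, n = 3 each). At this signal a change in Bsnd would be hard to see, and none of its tests passed.

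P13 lies around the onset of hearing in mice. Of the 6 genes 2, Atp1b2 and Slc12a2, had probe sets that were higher in α9−/− cochleae at this age. On Atp1b2 1422009_at the α9−/− arrays had 8.83, 9.52 and 9.51, against 5.84, 5.93 and 6.18 in the wild type arrays. The groups did not overlap, and the log2 difference was 3.30 (SE 0.24, 9.87-fold, limma, adjusted p = 0.00208). On Slc12a2 1417623_at the α9−/− arrays had 9.49, 10.29 and 10.63, against 6.23, 7.62 and 8.30 in the wild type arrays, again without overlap (difference 2.76, SE 0.54, 6.76-fold, limma, adjusted p = 0.0352). On Slc12a2 1448780_at they had 10.33, 11.37 and 11.34, against 8.54, 9.07 and 9.84 (difference 1.87, SE 0.41, 3.65-fold, limma, adjusted p = 0.0456). Thus 3 of 10 member probe sets were called higher and 0 lower, where 3.62% of all 45101 probe sets were called higher and 1.85% lower. The count was 1 without α9−/− array 2, α9−/− array 3 or wild type array 2, where 1.02%, 0.559% and 0.787% of all probe sets were called. Atp1b2 1422009_at passed with any array left out (limma, adjusted p of 0.00179 to 0.0195).

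The brighter probe sets of the same 2 genes did not pass at P13. Atp1b2 1435148_at had 11.02, 11.46 and 11.22 in α9−/− arrays, against 10.72, 10.91 and 10.81 in wild type arrays. These groups did not overlap either, but the difference was 0.42 (SE 0.18, limma, adjusted p = 0.192). Slc12a2 1417622_at had 12.26, 12.71 and 12.73, against 11.98, 12.50 and 12.42, with a difference of 0.26 (SE 0.22, limma, adjusted p = 0.473). In all, 4 of 10 probe sets lay above without overlap, beside 12.4% of all probe sets. The probe sets of 1 gene therefore gave differences of 3.30 and 0.42 for Atp1b2, and of 2.76, 1.87 and 0.26 for Slc12a2. The mean over the probe sets of a gene was higher by 1.86 for Atp1b2 and by 1.63 for Slc12a2 (limma, adjusted p = 0.017 and 0.0485). Kcnj10 differed by 0.44 (SE 0.31), Kcnq1 by 0.24 (SE 0.17), the Kcne1 probe sets both by 0.13 (SE 0.25 and 0.17) and Bsnd by -0.04 (SE 0.22), and none of them passed.

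**Figure D2:**
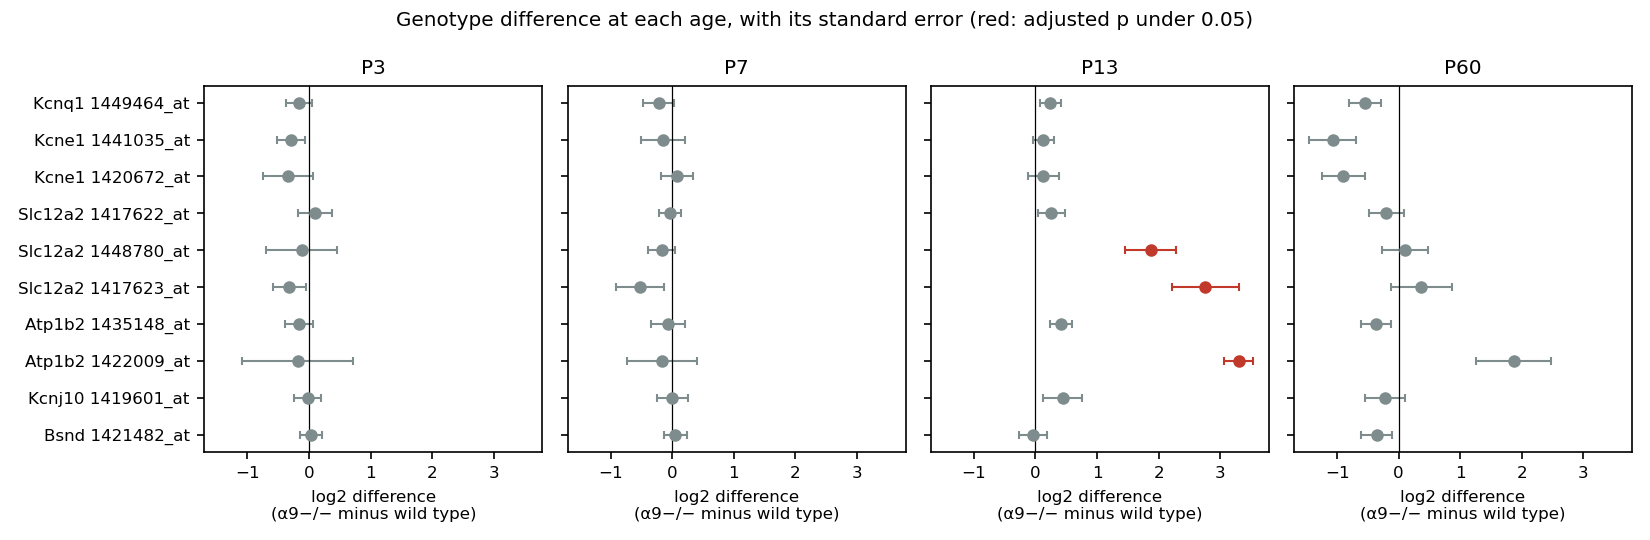
Log2 difference of α9−/− minus wild type (x axis) for the 10 probe sets (y axis) at P3, P7, P13 and P60, with bars for the standard error and red for an adjusted p under 0.05. The red points are all at P13, at 3.30, 2.76 and 1.87, and the other probe sets of Atp1b2 and Slc12a2 stand at 0.42 and 0.26.

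The called probe sets at P13 were lower on arrays of high Gapdh excess in each group that held such an array, by varying amounts. The 3′ minus 5′ excess was 0.34, -0.15 and -0.15 in the α9−/− arrays and 6.30, 6.47 and 2.43 in the wild type arrays at P13, without overlap. Within wild type at P13, the 2 arrays of high excess differed from the third by -0.30 on Atp1b2 1422009_at. On Slc12a2 1417623_at and 1448780_at they differed from it by -1.38 and -1.04. Within the other groups that held an array of high excess, Atp1b2 1422009_at was lower on it than on the rest of its group, by 2.18 in α9−/− at P3, 2.58 in wild type at P3 and 1.79 in wild type at P60. Slc12a2 1448780_at was lower there by 1.45, 1.65 and 0.36, and 1417623_at by 0.82, 0.23 and 1.41. The brightest probe set of Atp1b2, 1435148_at, was not lower there, with values 0.17, 0.12 and 0.58 above the rest. The brightest of Slc12a2, 1417622_at, differed there from the rest by 0.05, -0.80 and 0.41. Without the arrays of high excess, which leaves 1 wild type array at P13, the differences were 3.11, 1.84 and 1.18. With the excess as a covariate they were 2.83, 0.93 and 0.43. With this covariate 0 of 10 probe sets passed, beside 0% of all probe sets, so the count is not particular to the members. At P13 the excess ran along with genotype, so this fit cannot tell the 2 apart. Where in the transcripts these probe sets lie was not analysed here.

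**Figure D3:**
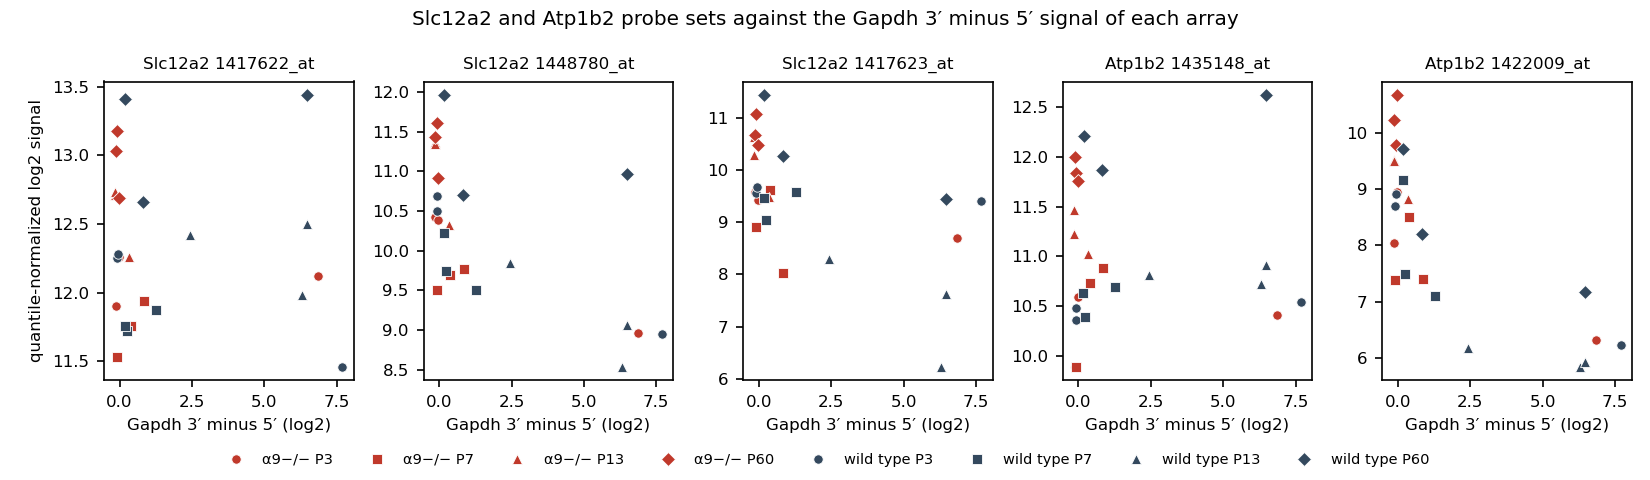
Quantile-normalized log2 signal (y axis) of the Slc12a2 and Atp1b2 probe sets against the Gapdh 3′ minus 5′ log2 excess (x axis), with a point for each of 24 arrays, α9−/− red and wild type dark, and the symbol giving the age. For Atp1b2 1422009_at the 5 arrays with an excess over 6 lie at 5.84 to 7.17 and the other arrays at 6.18 to 10.68, whereas those 5 arrays span 10.41 to 12.62 on 1435148_at.

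Arrays also differed in whether poly-A control transcripts had been detected. They were detected in 2 arrays per genotype at P3, 1 at P7, 1 at P13 and 3 at P60. This difference therefore partly runs along with the age steps to P60 and cannot be fully told apart from them. It split P13 into 1 array per genotype with the controls and 2 without. The α9−/− arrays were higher in both parts, by 2.99 and 3.46 on Atp1b2 1422009_at, 3.27 and 2.50 on Slc12a2 1417623_at and 1.79 and 1.90 on 1448780_at. The skeletal muscle marker list (6 genes) averaged 8.18 to 8.37 over α9−/− arrays and 8.23 to 11.15 over wild type arrays at P13, and its part in the differences was not tested. The median difference over the 10 member probe sets at P13 was 0.34, beside -0.12 over all probe sets.

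At P60 no member passed between genotypes, and limma called 0% of all probe sets at this age. The larger downward differences were those of the apical channel subunits. Kcne1 1441035_at had 8.06, 8.50 and 8.32 in α9−/− arrays, against 9.79, 9.79 and 8.50 in wild type arrays, a difference of -1.07 (SE 0.38, limma, unadjusted p = 0.0261, adjusted p = 0.881). Kcne1 1420672_at had 7.73, 8.56 and 8.49, against 9.55, 9.35 and 8.56, a difference of -0.90 (SE 0.35, limma, unadjusted p = 0.0373, adjusted p = 0.881). Kcnq1 had 8.38, 8.65 and 8.40, against 9.09, 9.41 and 8.59, a difference of -0.55 (SE 0.26, limma, adjusted p = 0.881). For all of these the third wild type array lay among or next to the α9−/− arrays, while wild type arrays 1 and 2 stood above them. Leaving out single arrays gave differences of -1.49 to -0.85, -1.19 to -0.63 and -0.77 to -0.36. With the arrays in this order the sign could hardly change, so its staying negative is no further evidence.

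Of other genes of the marginal cells, Esrrb and Lrp2 had the same sign at P60 without passing, and others had mixed signs. Slc12a2 differed by -0.20 on 1417622_at, 0.37 on 1417623_at and 0.10 on 1448780_at, and Atp1b2 by -0.37 on 1435148_at and 1.87 on 1422009_at. Esrrb, a nuclear receptor needed for marginal cell development, averaged 8.38 in α9−/− and 9.13 in wild type cochleae, and the endocytic receptor Lrp2 averaged 9.38 and 10.06. The list of 6 marginal cell markers, of which 4 are members, averaged 8.69 to 8.92 over α9−/− arrays and 8.94 to 9.66 over wild type arrays at P60. The 9 intermediate cell markers averaged 8.26 to 8.97 and 8.76 to 9.29. The astrocyte and cerebellum markers lay the other way, at 9.71 to 11.48 over α9−/− arrays and 8.62 to 10.44 over wild type arrays. With their mean as a covariate, added after these values were seen, the differences were -0.78 for Kcne1 1441035_at, -0.62 for 1420672_at and -0.37 for Kcnq1. The skeletal muscle markers averaged 10.88, 11.10 and 12.54 in α9−/− arrays and 9.90, 10.96 and 12.74 in wild type arrays, highest in array 3 of each genotype, and their part in the differences was not tested. Wild type array 1 at P60 carried a Gapdh excess of 6.47, and without it the Kcne1 differences were -0.85 and -0.70. Atp1b2 1422009_at differed in the other direction, with 10.23, 9.79 and 10.68 in α9−/− arrays against 7.17, 9.72 and 8.20 in wild type arrays (difference 1.87, SE 0.61, limma, unadjusted p = 0.0183, adjusted p = 0.881). Without wild type array 1 this difference was 1.27. At P60 in all, 1 of 10 probe sets was above and 1 below without overlap, with Kcne1 1420672_at below by less than the rounding, beside 4.1% and 6.82% of all probe sets. At an unadjusted p under 0.05, 1 was higher and 2 were lower, beside 2.89% and 2.29%.

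At P3 and P7 no member passed between genotypes. Standard errors reached 0.90 at P3 and 0.57 at P7, on Atp1b2 1422009_at, so equal levels are not shown. The 10 differences lay between -0.34 and 0.10 at P3 and between -0.52 and 0.08 at P7, the arrays of the genotypes overlapped for all 10 probe sets, and every adjusted p from limma was 1. At an unadjusted p under 0.05 the count was 0 of 10 at both ages, where 1.03% of all probe sets were higher and 1.01% lower at P3, and 0.887% and 0.807% at P7. Over all probe sets 0% were called at P3 and 0.00443% at P7.

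Expression was then compared between successive ages within each genotype, with all 24 arrays in 1 fit. From P3 to P7 no member passed, with differences of -0.38 to 0.23 over both genotypes and 0 of 10 called in either, where limma called 1.21% of all probe sets in α9−/− and 0.996% in wild type cochleae. From P7 to P13 no member passed in α9−/− cochleae either, beside 2.94% of all probe sets. At an unadjusted p under 0.05, 6 of 10 were higher, beside 7.02%. Slc12a2 1417622_at had 12.26, 12.71 and 12.73 at P13, against 11.94, 11.53 and 11.76 at P7, without overlap (difference 0.82, SE 0.25, limma, adjusted p = 0.0798), and Kcnj10 differed by 0.94 (SE 0.31, limma, adjusted p = 0.116). In wild type cochleae 1 probe set was called, in the downward direction, beside 14.2% of all probe sets in either direction and 5.55% downward. This was Slc12a2 1417623_at, with 6.23, 7.62 and 8.30 at P13 against 9.59, 9.05 and 9.46 at P7 (difference -1.98, SE 0.50, limma, adjusted p = 0.0131). The call was lost without wild type array 1 at P13 (-1.40, adjusted p = 0.0831) and without the arrays of high Gapdh excess (-1.06, adjusted p = 0.288).

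From P13 to P60, 4 of the 6 genes rose in wild type cochleae on their brightest probe set, Atp1b2, Kcnj10, Slc12a2 and Kcne1. Of the 10 probe sets 7 were called higher and 0 lower, where 12% of all probe sets were called in either direction and 5.06% were called higher. Atp1b2 1435148_at had 12.62, 12.21 and 11.87 at P60, against 10.72, 10.91 and 10.81 at P13, without overlap (difference 1.42, SE 0.24, 2.67-fold, limma, adjusted p = 0.000629). Kcnj10 had 10.57, 10.71 and 9.86, against 9.14, 9.23 and 9.16, also without overlap (difference 1.20, SE 0.31, 2.30-fold, limma, adjusted p = 0.0138). Slc12a2 1417622_at had 13.44, 13.41 and 12.66, against 11.98, 12.50 and 12.42 (difference 0.87, SE 0.25, 1.82-fold, limma, adjusted p = 0.0256). Kcne1 1441035_at had 9.79, 9.79 and 8.50, against 8.05, 8.35 and 8.32 (difference 1.12, SE 0.32, 2.17-fold, limma, adjusted p = 0.0266).

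The other called probe sets of this step were those with low wild type values at P13. Slc12a2 1417623_at differed by 3.00 (SE 0.50), 1448780_at by 2.06 (SE 0.48) and Atp1b2 1422009_at by 2.38 (SE 0.73), with adjusted p from limma of 0.000589, 0.00744 and 0.0388. Kcne1 1420672_at (0.97, SE 0.35) and Kcnq1 (0.60, SE 0.22) did not pass (limma, adjusted p = 0.0778 and 0.082), and Bsnd differed by 0.04. On the deposited values 4 of 10 were called in this step, beside 25.8% of all probe sets in either direction. Those lost were Slc12a2 1417622_at (0.39, adjusted p = 0.232), Kcnj10 (0.80, adjusted p = 0.0671) and Kcne1 1441035_at (0.84, adjusted p = 0.0718), all from limma. On median-centred values Slc12a2 1417622_at (0.56, adjusted p = 0.123) and Kcne1 1441035_at (1.01, adjusted p = 0.0532) were lost. Without the arrays of high Gapdh excess, which leaves 1 wild type array at P13, fewer probe sets passed. Without wild type array 2 at P60 2 of 10 passed, and without wild type array 1 at P13 3 did. The shares of all probe sets called in these fits are not given here. The losses are therefore not read as particular to the members. In α9−/− cochleae 0 of 10 passed for this step, beside 7.27% of all probe sets, and 1 was higher at an unadjusted p under 0.05, beside 9.11%. That was Atp1b2 1435148_at, with 12.00, 11.84 and 11.76 at P60 against 11.02, 11.46 and 11.22 at P13 (difference 0.64, SE 0.24, limma, adjusted p = 0.13).

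**Figure D4:**
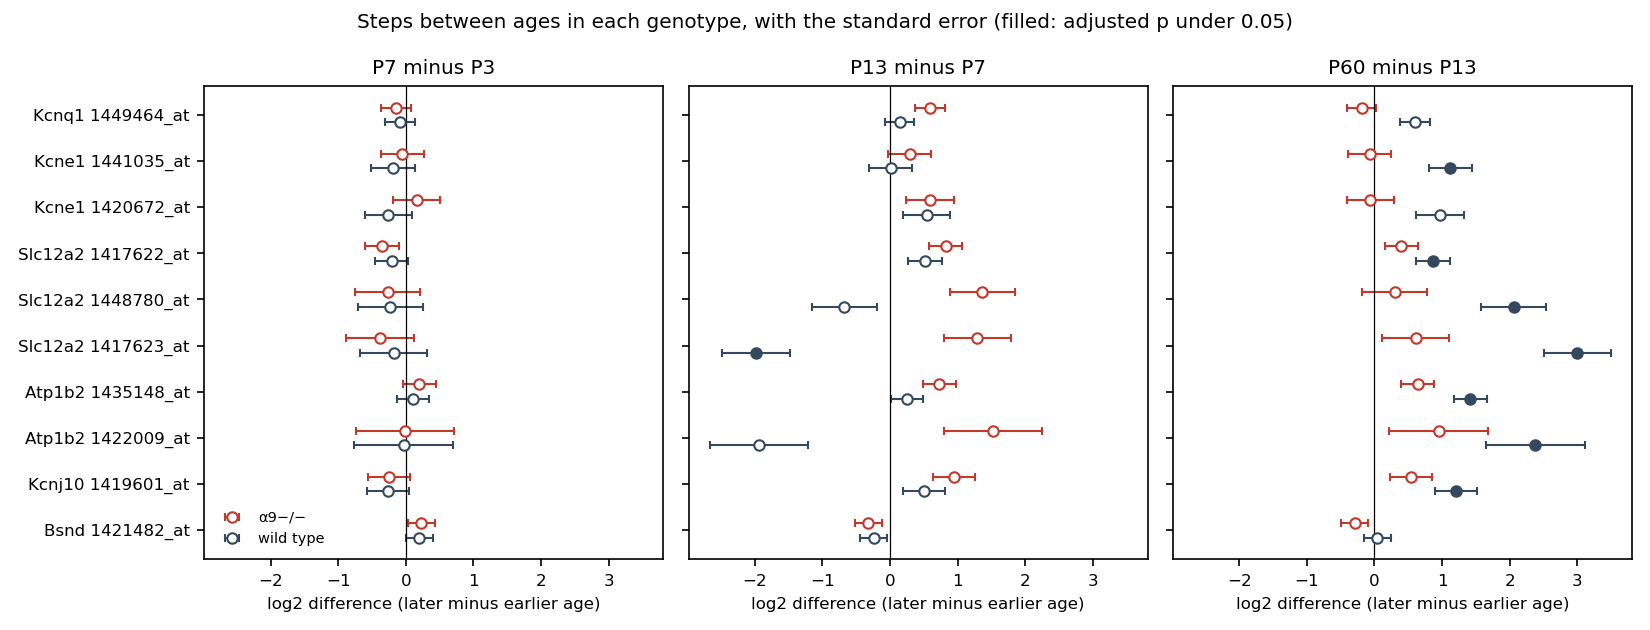
Log2 difference of the later minus the earlier age (x axis) for the 10 probe sets (y axis) in 3 steps, α9−/− above (red) and wild type below (dark), with bars for the standard error and filled points for an adjusted p under 0.05. From P13 to P60 wild type has 7 filled points, at 0.87 to 3.00, and α9−/− has none, with values of -0.29 to 0.95.

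The difference between the genotypes in an age step was tested itself, as an interaction, and no member passed in any step. From P13 to P60 all 10 differences (the α9−/− step minus the wild type step) were negative, with a median of -0.91 beside 0.04 over all probe sets, and 5 had an unadjusted p under 0.05, beside 1.98% of all probe sets in that direction. Over all probe sets 0% passed in this step. For example, Kcne1 1441035_at gave -1.19 (SE 0.45) and Kcnq1 -0.79 (SE 0.31), and limma gave an adjusted p of 1 for each. From P7 to P13 the larger differences were 3.46 (SE 1.04) for Atp1b2 1422009_at, 3.27 (SE 0.71) for Slc12a2 1417623_at and 2.03 (SE 0.67) for 1448780_at (limma, adjusted p = 0.458, 0.352 and 0.476). These 3 were the members at an unadjusted p under 0.05, beside 4.24% of all probe sets in that direction, and 0.00222% of all probe sets passed. The wild type step and the α9−/− step share no arrays, but the steps before and after P13 share the P13 arrays. So the larger wild type rise to P60 and the lower wild type values at P13 are not separate observations.

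Over the whole interval, P60 against P3, Atp1b2, Kcnj10 and Slc12a2 rose in both genotypes on their brightest probe sets. Atp1b2 1435148_at differed by 1.57 (SE 0.24, 2.97-fold) in α9−/− and by 1.77 (SE 0.24, 3.42-fold) in wild type cochleae (limma, adjusted p = 0.000144 and 3.43e-05). Kcnj10 differed by 1.24 (SE 0.31, 2.36-fold) and 1.44 (SE 0.31, 2.72-fold), with adjusted p from limma of 0.00891 and 0.00269. Slc12a2 1417622_at differed by 0.88 (SE 0.25) and 1.17 (SE 0.25), with adjusted p of 0.0204 and 0.0025. The other probe set of Atp1b2, 1422009_at, differed by 2.46 in α9−/− and by 0.41 in wild type cochleae (limma, adjusted p = 0.0289 and 0.792), and the mean over both Atp1b2 probe sets by 2.01 and 1.09 (limma, adjusted p = 0.00105 and 0.0621). Without α9−/− array 2 at P3, which carried a Gapdh excess of 6.85, 1422009_at differed by 1.73 in α9−/− cochleae (limma, adjusted p = 0.169). In α9−/− cochleae Slc12a2 1417623_at (1.52) passed as well, which made 5 of 10, beside 14.3% of all probe sets in either direction and 6.28% upward. The count was 1 without α9−/− array 1 at P60 (beside 9.24% of all probe sets), 2 without array 1 at P3 (10.6%) and 3 without array 2 at P60 (10.1%). In wild type cochleae Kcne1 1420672_at (1.25, SE 0.35) was the fourth called, of 10, beside 13.7% in either direction and 7.59% upward.

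Markers of the cerebellum and of astrocytes moved with age as well. Cbln1, Cbln3, Pcp2 and Gabra6 are expressed by cerebellar neurons, and Gabra6 averaged 3.92, 3.74, 5.43 and 11.17 from P3 to P60 in α9−/− and 4.05, 3.86, 7.07 and 9.60 in wild type cochleae. The mean over the 10 markers of this list was 7.49 to 7.90 at P3, 6.59 to 7.44 at P7, 6.57 to 8.58 at P13 and 9.71 to 11.48 at P60 in α9−/− arrays. In wild type arrays it was 7.46 to 7.72, 6.57 to 6.72, 6.75 to 9.24 and 8.62 to 10.44. With the marker mean as a covariate, added after these values were seen, 3 of 10 probe sets passed from P13 to P60 in wild type (Slc12a2 1417623_at and 1448780_at and Atp1b2 1435148_at), and for P60 against P3 0 passed in α9−/− and 1 in wild type. The covariate lowered the share of all probe sets called for P60 against P3 in α9−/− from 14.3% to 3.18%. Its shares for the wild type comparisons are not given here. Kcnj10 then differed from P13 to P60 by 0.95 in wild type (limma, adjusted p = 0.102). The 3 calls between genotypes at P13 were kept with this covariate, at 3.43, 3.17 and 2.16.

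**Figure D5:**
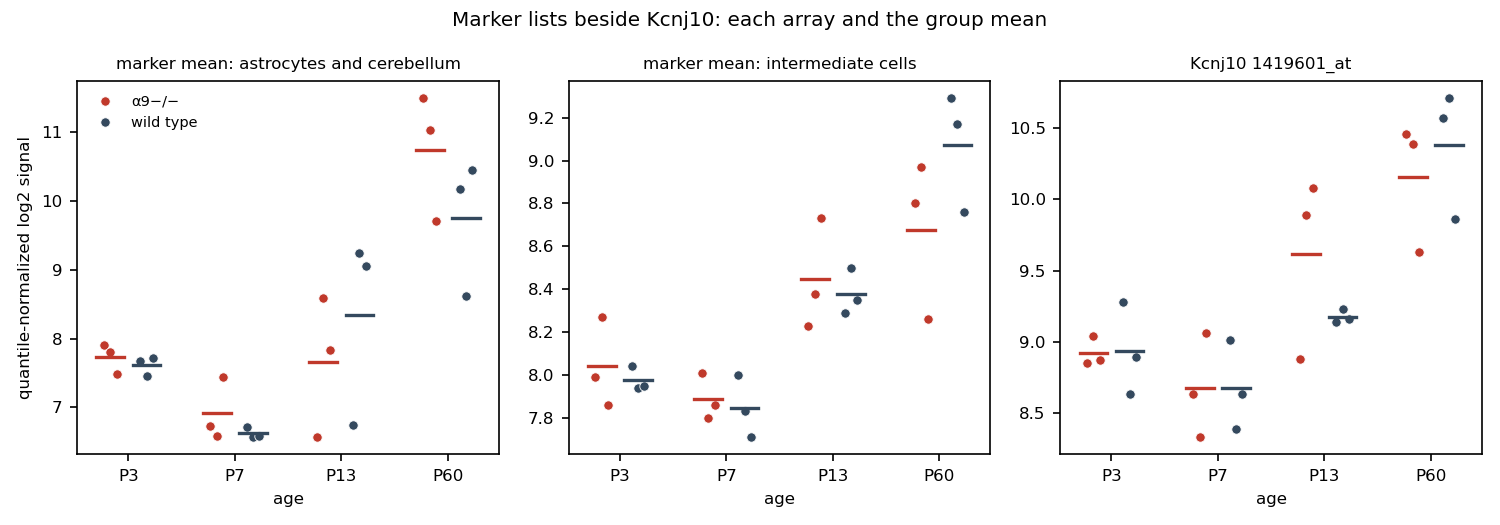
Mean log2 signal (y axis) of the 10 astrocyte and cerebellum markers, of the 9 intermediate cell markers and of Kcnj10 at each age (x axis), with a point for each array and a bar for the mean of 3, α9−/− left (red) and wild type right (dark). The cerebellar list spans 8.62 to 11.48 at P60 and 6.57 to 9.24 at P13, while Kcnj10 spans 9.63 to 10.71 and 8.88 to 10.08.

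Other genes of the same transport systems were tested from lists, each gene by its brightest probe set. Between genotypes at P13, 1 of 9 measured partners of the sodium-potassium ATPase and of chloride channels was higher, 0 of 14 other inward rectifiers changed, 1 of 6 other KCNQ and KCNE genes was lower, 1 of 13 cation-chloride cotransporters and kinases was higher and 1 of 14 other genes linked to the endocochlear potential was higher. Over all genes 1.15% were called higher and 2.25% lower at this age. The called genes were Fxyd6, an ATPase modulator (10.99 in α9−/− and 9.29 in wild type, difference 1.70), the potassium channel Kcnq5 (6.67 and 7.58, difference -0.91), the potassium-chloride cotransporter Slc12a7 (10.12 and 8.76, difference 1.36) and the transcription factor Lmx1a (6.28 and 5.36, difference 0.92). Their adjusted p from limma were 0.0306, 0.0364, 0.0335 and 0.026. With the Gapdh excess as a covariate, limma called 0% of all probe sets at this age, so these calls were not kept either. The excess ran along with genotype at P13, and that fit cannot tell the 2 apart. Lmx1a lay below the median of all values, 6.65, in both genotypes. At P3, P7 and P60 no gene of the 5 lists passed between genotypes.

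The age steps of these lists set the members in context. From P3 to P7 the fibrocyte gene Otos, which encodes otospiralin, was the only gene of the 5 lists called, and it rose by 2.58 in α9−/− and by 2.90 in wild type cochleae, where 0.654% and 0.841% of all genes were called higher. From P7 to P13, 4 of 14 genes linked to the endocochlear potential rose in each genotype and 0 fell. These were Coch, the cochlin of spiral ligament fibrocytes (2.65 in α9−/−, 2.03 in wild type), Slc26a4, the anion exchanger pendrin (2.31 and 1.98), Otos (1.87 and 1.10) and Gjb6, a gap junction connexin (1.39 and 1.13). Over all genes 3.11% were called higher and 1.36% lower in α9−/− for this step, and 11.8% and 5.39% in wild type cochleae. Kcnj16, which forms channels with Kir4.1, rose by 2.11 and 1.66, Kcnj5 by 1.89 and 2.17, and Atp1b1, the beta 1 subunit, by 1.16 and 0.96. Slc12a3, the thiazide-sensitive cotransporter, rose by 1.18 and 1.11. In wild type cochleae Kcnq5 rose by 1.43 and the kinase Wnk1 by 0.76, and Fxyd1, an ATPase modulator, fell by 1.47. The wild type arrays at P13 carried the higher Gapdh excess, and its part in these steps was not tested. In both genotypes Kcne3 fell by 2.38 and by 1.18, and Kcne4 by 0.78 and by 0.66.

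From P13 to P60, 4 of these 14 genes rose in wild type cochleae, Slc26a4 by 1.54, Lrp2 by 1.27, Coch by 1.17 and Gjb6 by 0.90, while 0 rose and Eya4 fell by 1.03 in α9−/− cochleae. Over all genes 5.07% were called higher and 5.27% lower in α9−/−, and 5.77% and 9.42% in wild type cochleae. Fxyd2, the gamma subunit of the sodium-potassium ATPase, rose in both genotypes, by 3.18 in α9−/− and by 3.03 in wild type cochleae (limma, adjusted p = 4.47e-05 and 3.84e-05). Slc12a3 fell in both, by 1.57 and by 1.37. In α9−/− cochleae the neuronal cotransporter Slc12a5 rose by 2.70, and the inward rectifiers Kcnj9 and Kcnj3 rose by 1.20 and 0.80. In wild type cochleae Fxyd3 rose by 1.36 and Kcnj13 by 1.46, while Kcnj8 fell by 0.78 and Kcne3 by 2.02. No gene of the 5 lists passed an interaction test in this step, so the wild type calls are not shown to differ from α9−/−.

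The likeness of profiles over the 24 arrays, which share ages, genotypes and processing, is given as a description. Kcnq1 and Kcne1, the subunits of 1 channel, were each other's nearest gene among 9096 candidates, at Pearson r of 0.884. Next to Kcnq1 came Gjb2 (0.833) and Rlbp1 (0.832), and next to Kcne1 Lrpap1 (0.849) and Slc44a3 (0.823). The nearest genes of Slc12a2 were Stk39 (0.960), Mtmr7 (0.957) and Lrp2 (0.955), those of Kcnj10 were Cplx1 (0.967), Tgoln1 (0.956) and Sgpp2 (0.949), and those of Atp1b2 were Kcna1 (0.949), Cds1 (0.946) and Asic3 (0.941). Among the members, Kcnj10, Slc12a2 and Atp1b2 correlated with each other at 0.885 to 0.902. Bsnd stood apart, at -0.588 to 0.0506 with the other members, and its nearest genes were Naglu and Efna1 (both 0.850) and Tmed3 (0.831).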

How the data were processed

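The authors processed the scanned arrays with AffyPLM in BioConductor (RMA background, quantile normalization, Tukey biweight). The deposited values are log2 signals. Array medians were close within an age and differed between ages (6.73 to 6.89 at P13, 6.49 to 6.66 at the others), so the deposited log2 values were quantile-normalized again over all 24 arrays. Differences were tested with limma 3.58.1 in R 4.3.3, with Benjamini-Hochberg adjustment over all 45101 probe sets and a call at an adjusted p under 0.05. Genotypes were compared within an age on 6 arrays, and age steps and interactions in 1 fit of 24 arrays. The number of arrays limits the precision, and p-values measure the spread between pools. The test was tried on simulated data. The members and gene lists were chosen with earlier results of these data known. All member probe sets are reported. From each list the text names up to 4 called genes of largest difference, and for each member the 3 genes of highest correlation. Lists use the brightest probe set of a gene. Gene symbols come from the platform annotation, in which 34958 probe sets have 1 symbol, 932 several and 9211 none, and symbols without a single-symbol probe set were not analysed here. Replicate numbers in the labels did not pair the arrays except between P60 and P3 in α9−/−, where same-numbered arrays deviated together (r of 0.11 to 0.27), and there the fit with the number as a block kept 5 of 10 called. Alternatives covered the scale, filter, fold limit, array weights, batch, RNA quality, replicates and probe set choice. Figures were drawn with matplotlib 3.10.9.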

Additional observations from a re-analysis of the deposited data

Results flagged for a closer look

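On Atp1b2 1422009_at the step from P7 to P13 went opposite ways in the genotypes. All 3 α9−/− arrays at P13 (8.83, 9.52 and 9.51) lay above all 3 at P7 (7.40, 7.39 and 8.51), and all 3 wild type arrays at P13 (5.84, 5.93 and 6.18) lay below all 3 at P7 (7.10, 7.50 and 9.17). The difference between the steps was 3.46 on the log2 scale, and the interaction test over all probe sets did not pass (limma, adjusted p = 0.458). The wild type arrays at P13 also carried the higher Gapdh 3′ minus 5′ excess. The opposite steps were not seen on the brighter probe set of Atp1b2, 1435148_at. It was higher at P13 than at P7 in both genotypes without overlap, by 0.73 (SE 0.24) in α9−/− and 0.25 (SE 0.24) in wild type. Neither of these steps passed (limma, adjusted p = 0.118 and 0.537).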

How the results depend on the processing

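The counts below are member probe sets called, of 10. Percentages in brackets are the share of all tested probe sets called in that setting. Where a count has no bracket, that share is not given here. Such a count is not read as particular to the members. The cause of each change was not tested unless the setting itself leaves out arrays or raises the threshold. Between genotypes at P13, 3 were called (5.47%), 0 with the Gapdh excess as a covariate (0%) and 1 with all 24 arrays in 1 fit (0.417%). The count also fell without the arrays of high excess, a fit that leaves 1 wild type array at P13. Leaving out single arrays gave 1 to 3. It was 1 without α9−/− array 2 (1.02%), α9−/− array 3 (0.559%) or wild type array 2 (0.787%). With the excess as a covariate the difference of Slc12a2 1417622_at changed sign, to -0.01. From P7 to P13 in α9−/− (0 called, 2.94%), the counts were 4 on the deposited values (5.28%) and 6 with array weights (17.1%). They were 2 without high-excess arrays (5.72%), 1 with the excess as a covariate (5.36%) and 3 among arrays without poly-A controls (5.74%). Leaving out single arrays gave 0 to 1 (1.29% to 3.43%). In wild type (1 called, 14.2%), the counts were 2 on the deposited values (21.9%), of which 1 was higher and 1 lower. They were 2 in the top 40% by variance (29.2%), 4 with array weights (39.8%) and 0 with the covariate (7.6%). The count also fell without high-excess arrays, a fit that leaves 1 wild type array at P13. Leaving out single arrays gave 0 to 1 (6.6% to 14%). From P13 to P60, array weights gave 3 (23%) in α9−/− (0 called, 7.27%). In wild type (7 called, 12%), the counts were 4 on the deposited values (25.8%) and 3 with a log2 limit of 1.5 (3.25%). Fewer were called without high-excess arrays, a fit that leaves 1 wild type array at P13. With the cerebellar marker covariate, added after seeing the data, 3 were called. Leaving out single arrays gave 2 to 8 (2 without P60 array 2, 3 without P13 array 1). For P60 against P3 in α9−/− (5 called, 14.3%), the counts were 3 on the deposited values (13.9%) and 3 on median-centred values (15.6%). They were 3 with the log2 limit (4.27%) and 0 with the marker covariate (3.18%). Leaving out single arrays gave 1 to 4, with 1 without P60 array 1 (9.24%), 2 without P3 array 1 (10.6%) and 3 without P60 array 2 (10.1%). In wild type (4 called, 13.7%), the counts were 1 with the log2 limit, 8 with array weights, 7 with the poly-A block and 7 with the Gapdh covariate. They were 1 with the marker covariate and 3 to 6 when single arrays were left out. Interactions (0 called, 0.00222% from P7 to P13 and 0% from P13 to P60) gave 3 and 6 in these steps with array weights. With the replicate number as a block 2 were called from P7 to P13 in wild type, and no other count moved by over 1.5 times. Replicate numbers did not pair the arrays in 11 of 12 comparisons (same-numbered deviations correlated at -0.62 to 0.57). The deposited scale moved the median of all probe sets from P13 to P60 to -0.34 in α9−/− and -0.36 in wild type, beside -0.04 and -0.06. It left 15.9% and 11% of calls in the upward direction, beside 50.7% and 42.1%, and from P7 to P13 91.5% and 85%, beside 69% and 60.9%. Between genotypes at P13 median-centring left 54% of calls upward, beside 66.2%. With an array left out, 137 results of single probe sets stayed on their side of the threshold, 41 lost the call and 2 gained it. The 137 include probe sets not called with all arrays, such as those between genotypes at P60, which could not lose a call. Kcnq1 and Bsnd were not in the top 40% by variance. No detection calls were used, so the dim signal of Bsnd limits what could be seen.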
